A study of Homo sapiens with 15 samples.

Results

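Estrogen receptor β (ERβ, the product of ESR2) was put back into KPL4 cells that had lost it, and the RNA of these add-back cells was compared with that of the knockout cells they came from. KPL4 is a human breast adenocarcinoma line in which HER2 (ERBB2) is amplified. The comparison was chosen by its labels and used 6 of the 15 libraries of the series, 3 of knockout cells and 3 of add-back cells, all untreated and grown in medium with 7% fetal bovine serum, insulin and hydrocortisone. Add-back cells were described as knockout cells transfected with exogenous ERβ, so both groups carried the knockout. No group was labeled as knockout cells transfected without ERβ. The receptor therefore cannot be told apart from transfection or from other differences between the lines. How the receptor was expressed, whether either line was 1 clone, and whether the libraries of a group came from separate cultures were not stated, so p-values measure the spread between libraries, which may be technical. For reference, levels are also given in the other 9 libraries. Of these, 3 were from control KPL4 cells, which have their own ERβ, in the same medium. The other 6 were from add-back cells that spent 72 h without phenol red and with charcoal-treated serum at 1%, followed by 24 h with either the solvent DMSO (vehicle) or LY500307 at 200 nM, a synthetic agonist selective for ERβ.

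ERβ is a nuclear receptor: a transcription factor that is switched on by estrogens, binds DNA as a dimer at estrogen response elements, and can also act through other factors already bound to DNA. Its close relative ERα (ESR1) drives growth genes in many breast tumors, while ERβ has often been described as restraining growth. HER2 is a receptor tyrosine kinase that signals through the ERK and AKT pathways and pairs with other ERBB receptors, one of whose ligands is neuregulin (NRG1).

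Depth was 12614074 to 15891449 expected counts per knockout library and 14966501 to 17736189 per add-back library. In a principal component analysis of the 6 libraries the first component, 39.5% of the variance, separated the groups, and the second, 16.9%, set knockout replicate 1 at one end. Levels are CPM, counts scaled to a common library total, after TMM, a normalization that aligns libraries on genes assumed stable. Fold changes and adjusted p-values are from edgeR's quasi-likelihood test on 19516 genes, and a gene is said to rise or fall where its Benjamini-Hochberg adjusted p was under 0.05.

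ESR2 itself was measured first. It held 5.77, 3.04 and 4.41 CPM in the 3 knockout libraries and 34.1, 33.8 and 30.6 CPM in the 3 add-back libraries, a log2 fold change of 2.89 ± 0.12 (SE; adjusted p = 4.54e-12). The groups did not overlap. Control cells held 5.76 CPM on average, and knockout cells were not called against them (adjusted p = 0.0796, in a contrast that called 46% of genes), so the total RNA level did not mark the knockout. The transcript table showed which transcripts gained. The 3 with the largest gain, ESR2-206, ESR2-201 and ESR2-210, held 0, 0 and 4 expected counts in the knockout libraries and 394, 496 and 372 in the add-back libraries. They made up 74.7% to 81.1% of the ESR2 counts of add-back cells. All other ESR2 transcripts together held 40.3 to 81.3 counts in knockout and 107 to 133 in add-back libraries. ESR2 (GRCh38 chromosome 14, 64084232 to 64338112, minus strand) overlaps SYNE2 on the opposite strand, which had a mean of 236 CPM, and whether counting used strand was not given in the sources used here. ESR1, at 17.4 CPM (knockout mean) and 17.1 CPM (add-back mean), was not called (log2 fold change -0.02 ± 0.08). It overlaps SYNE1 on the opposite strand, which had a mean of 9.74 CPM and rose by 1.14 on the log2 scale (adjusted p = 2.93e-05), so its value is uncertain in the same way.

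Of the 19516 genes, 3824 (19.6%) were called: 2030 (10.4%) rose in add-back against knockout cells and 1794 (9.19%) fell. Most changes were small: the median fold was 1.21 for genes that rose and 1.34 for genes that fell. At least 2-fold, 157 genes rose (0.804%) and 307 fell (1.57%). The balance of directions depended on the scaling. Genes that rose were 53.1% of the calls with TMM, 42.0% with upper-quartile factors and 64.1% with DESeq2. The plot of all genes tested shows these changes against the level of each gene.

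**Figure D1:**
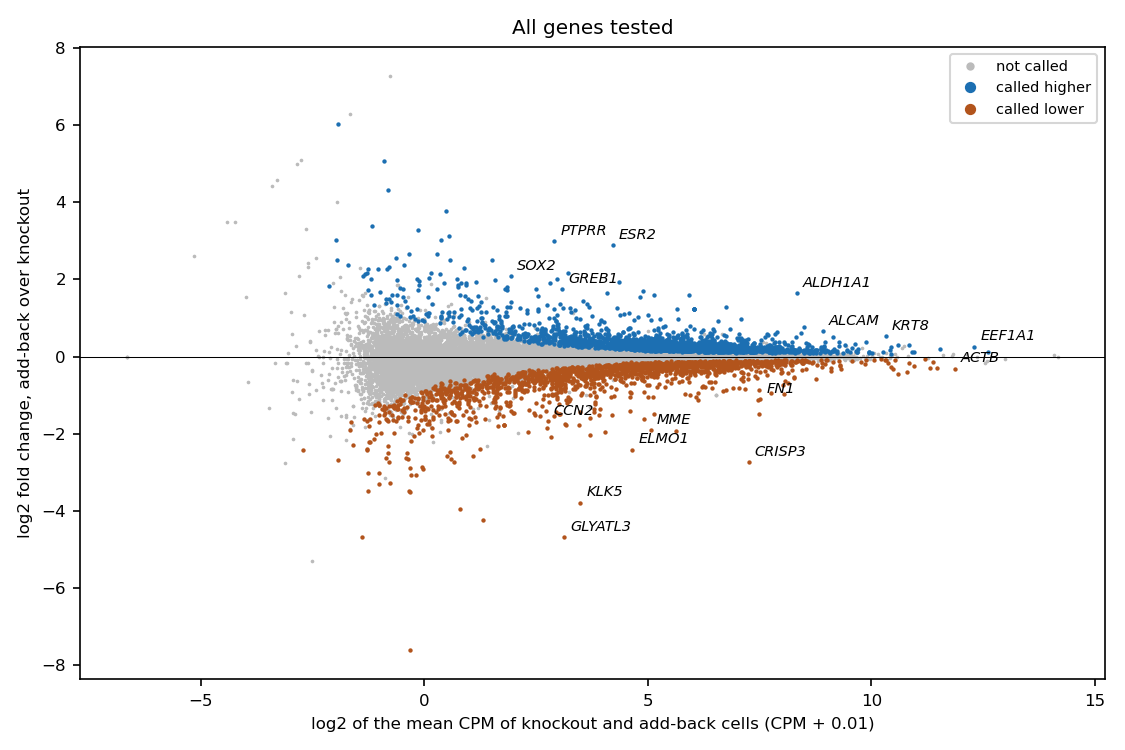
Log2 fold change of add-back over knockout cells (y) against the log2 mean CPM of the 6 libraries' groups (x) for the 19516 genes tested, with the 2030 genes called higher in blue, the 1794 called lower in orange and the rest in grey. Large falls such as GLYATL3, KLK5 and CRISP3 lie farther from 0 than most rises, and the calls among abundant genes lie close to 0.

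The genes that rose most included enzymes of signaling and metabolism and transcription factors. PTPRR, a tyrosine phosphatase that acts on ERK kinases, held 1.85, 1.45 and 1.71 CPM in knockout and 13.1, 12.7 and 14.2 CPM in add-back libraries, a 7.90-fold rise (log2 2.98 ± 0.14; adjusted p = 3.22e-11). SOX2, a transcription factor of stem and progenitor cells, went from 1.35, 1.60 and 1.41 to 5.63, 6.57 and 6.32 CPM, 4.26-fold (adjusted p = 1.88e-09). FOXC1, a forkhead factor, went from 1.71, 0.761 and 1.16 to 4.72, 4.97 and 4.66 CPM, 3.92-fold (adjusted p = 6.21e-06). In each of these genes every add-back library lay above every knockout library, which the rule for naming them required. ALDH1A1, a retinaldehyde dehydrogenase used as a marker of mammary stem-like cells, was the most abundant of the genes with the largest folds, at 158, 154 and 157 CPM in knockout and 494, 496 and 476 CPM in add-back cells (log2 1.64 ± 0.04; adjusted p = 1.01e-16). MAOA, a monoamine oxidase and a known glucocorticoid target, rose 4.01-fold, from 3.13, 3.88 and 2.51 to 13.2, 12.5 and 12.1 CPM. The spread within a group was small beside both differences.

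Several of the other large rises belonged to the cell surface or to membrane traffic. ST8SIA4, a sialyltransferase that builds polysialic acid, rose 5.68-fold from a mean of 0.833 CPM, and SYTL5, a RAB27 effector in vesicle transport, rose 4.47-fold from 3.44 CPM. PTPRB, a receptor tyrosine phosphatase, rose 3.34-fold, GPC6, a glypican, 3.81-fold to 32.4 CPM, and PKIB, an inhibitor of protein kinase A, 3.11-fold to 25.7 CPM. DACH1, a transcriptional corepressor, rose 3.38-fold, and SAGE1, a cancer-testis antigen gene, rose 3.47-fold. NRG1 rose from 1.496, 1.98 and 1.53 to 5.56, 5.52 and 5.43 CPM, 3.31-fold (adjusted p = 9.68e-08). The 16th gene of this group, RGPD6, is one of a family of near-identical copies, ranged from 19.2 to 72.1 CPM over the add-back libraries and is uncertain (adjusted p = 0.0143). Its call was lost with limma-voom (adjusted p = 0.0528), without knockout replicate 3 (adjusted p = 0.0741) and without add-back replicate 1 (adjusted p = 0.0899).

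Among the largest falls were genes of secreted and membrane proteins. GLYATL3, an acyltransferase gene, held 17.1, 16.4 and 17.1 CPM in knockout and 0.582, 0.663 and 0.703 CPM in add-back libraries, a 25.7-fold fall (log2 -4.68 ± 0.22; adjusted p = 1.15e-10). KLK5, a secreted trypsin-like kallikrein, went from 20.02, 21.9 and 20.6 to 1.49, 1.60 and 1.41 CPM, a 13.8-fold fall (adjusted p = 1.85e-14). CRISP3, a secreted cysteine-rich protein, went from 265, 273 and 260 to 39.3, 40.4 and 39.9 CPM, 6.66-fold (adjusted p = 2.88e-18). The add-back libraries lay below the knockout libraries throughout, as the rule for naming these genes required. ELMO1, which with DOCK proteins activates the GTPase RAC, fell 5.31-fold from 42.3 to 7.93 CPM, and VTCN1, the immune checkpoint ligand B7-H4, fell 4.06-fold from 20.9 to 5.12 CPM. MME, the peptidase neprilysin, fell 3.76-fold from 52.8 to 14.03 CPM. L1CAM, a neural adhesion protein, held 10.8, 10.3 and 10.4 CPM in knockout and 2.65, 2.54 and 3.58 CPM in add-back cells (log2 -1.84 ± 0.16; adjusted p = 7.30e-08). For L1CAM, too, the naming rule required groups that do not overlap.

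The remaining large falls were of mixed function. OPRK1, the kappa opioid receptor, fell 3.05-fold from 45.4 to 14.9 CPM, and C4orf50 fell 3.85-fold from 26.2 to 6.79 CPM. TMEM86A, which encodes a lysoplasmalogenase, fell 3.45-fold and SLC24A3, a sodium, potassium and calcium exchanger, 3.91-fold. COL12A1, a collagen of the extracellular matrix, fell 3.40-fold and PGM5, a phosphoglucomutase-like protein of cell adhesions, 4.23-fold. INSYN1 fell 3.39-fold, HDGFL3 3.09-fold and CCN2, discussed with its pathway, 3.17-fold. The plot of the largest changes shows each library for all 32 genes.

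**Figure D2:**
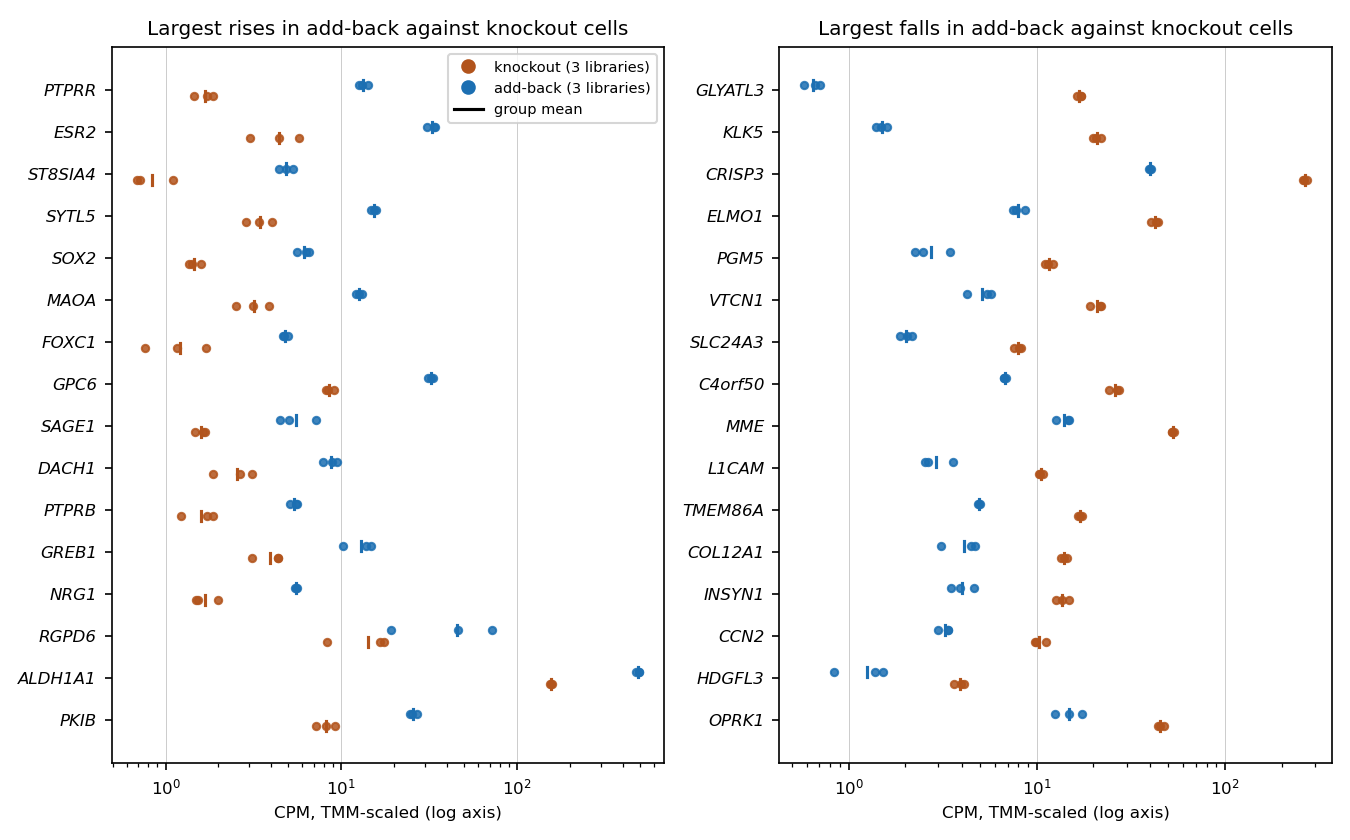
CPM (TMM-scaled, log axis) in each of the 3 knockout (orange) and 3 add-back (blue) libraries for the 16 protein-coding genes with the largest rises and the 16 with the largest falls, whose groups do not overlap, with a bar at each group mean. RGPD6 has the widest spread within a group, and CRISP3 and ALDH1A1 are the most abundant.

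Among abundant transcripts changes that were small in fold were large in CPM, and the genes here were picked by that difference. EEF1A1, the elongation factor that brings tRNA to ribosomes, went from 4645, 4542 and 4629 to 5343, 5505 and 5613 CPM, a 1.19-fold rise (adjusted p = 8.49e-07). KRT8, a keratin of luminal epithelium, rose 1.43-fold from 961, 1089 and 1098 to 1449, 1541 and 1523 CPM. PABPC1, the poly(A)-binding protein, rose 1.14-fold and FTH1, the ferritin heavy chain, 1.22-fold, whereas FTL, the ferritin light chain, fell 1.32-fold. ACTB, cytoplasmic actin, went from 4153, 4173 and 4067 to 3217, 3274 and 3460 CPM, a 1.25-fold fall (adjusted p = 4.71e-08). HSP90AA1, an inducible chaperone, fell 1.22-fold, PEG10, a retrotransposon-derived imprinted gene, 1.38-fold, and SQSTM1, the autophagy receptor p62, 1.25-fold. The libraries of the groups did not overlap in these genes, as the naming rule required; over all genes the 3 add-back libraries lay above the 3 knockout libraries in 17.7% and below them in 17.6%.

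Many genes of DNA replication were lower in add-back cells. Of 45 members of the S-phase list 26 were lower and 0 higher, with a median log2 fold change of -0.20 against -0.01 over all genes, and the falls ran from -0.54 to -0.12. MCM3, a subunit of the replicative helicase, held 171, 168 and 161 CPM in knockout and 115, 113 and 115 CPM in add-back libraries (log2 -0.54 ± 0.04; adjusted p = 1.58e-08). MCM4 fell 1.17-fold, MCM6 1.23-fold and DTL, which directs the destruction of licensing factors, 1.29-fold. E2F1, the transcription factor that drives many S-phase genes, went from 47.5, 50.6 and 51.3 to 33.4, 35.9 and 37.4 CPM (log2 -0.49 ± 0.05; adjusted p = 1.86e-06). The add-back libraries lay below the knockout libraries for both genes. Most members named from this and later lists were picked for a small p, which favors such gaps. With LY500307 against vehicle, a comparison of other libraries, the S-phase list went the other way, 8 of 45 members higher and 0 lower. Over all genes 4.77% were higher and 2.35% lower in that comparison. Replication-dependent histone genes, whose mRNAs are made in S phase, did not follow: of 28, 6 were higher and 1 lower (13 and 2 with no filter on low counts), with a median of 0.11. With LY500307 against vehicle 15 of these 28 were higher and 0 lower. H3C4 rose 1.25-fold and H4C3 1.22-fold, and H1-2, a linker histone, fell from 185 to 155 CPM on average. Histone genes of 1 class are near-identical in sequence, so single values are uncertain. Nor did mitotic genes: of 33, 10 were higher and 2 lower, with a median of 0.08. TOP2A, a DNA topoisomerase, rose from 375, 360 and 380 to 426, 439 and 460 CPM and HMMR, a spindle protein, 1.32-fold, while BIRC5, survivin, fell 1.16-fold. Of 22 G1 cyclins, CDKs and CDK inhibitors 6 rose and 5 fell (5 and 7 with upper-quartile factors). CDK6, a G1 kinase, fell 1.36-fold, and the CDK inhibitors CDKN2A and CDKN2B rose 1.38-fold and 1.28-fold. CDKN2A and CDKN2B overlap an antisense gene, so their counts are uncertain.

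YAP is a coactivator that the Hippo pathway restrains and that responds to cell shape and attachment, and TEAD transcription factors bind DNA for it. Targets of YAP and TEAD were lower in 15 of 24 members and higher in 3, with a median of -0.23. CCN2, a matricellular growth factor and a standard target, held 11.2, 9.89 and 9.80 CPM in knockout and 3.36, 2.98 and 3.39 CPM in add-back libraries (log2 -1.67 ± 0.20; adjusted p = 7.24e-06). CCN1, its relative, went from 103, 104 and 103 to 74.6, 78.5 and 79.8 CPM, and NT5E, the ectonucleotidase CD73, from 90.8, 94.7 and 92.1 to 41.7, 49.2 and 53.1 CPM. The groups did not overlap in any of the 3. FJX1 fell 1.72-fold and THBS1, thrombospondin 1, 1.18-fold. The regulators themselves, named after their values were seen, moved in opposite directions: YAP1 had a log2 fold change of 0.13 and WWTR1, which encodes TAZ, of -0.34.

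The stretch of 250 bases before the gene start, from RefSeq on GRCh38.p14, was searched on both strands for the TEAD motif GGAATG and for the E2F motifs TTTCCCGC and TTTGGCGC. GGAATG was present in 11.9% of 27305 promoters and in 7 of the 19 YAP-TEAD promoters found (36.8%), and an E2F motif in 1.96% of all and in 15 of 39 S-phase promoters (38.5%). Over the promoters of all genes tested the TEAD share was 9.51% and the E2F share 2.94%. Among genes that rose and genes that fell, 9.62% and 9.99% held the TEAD motif and 2.61% and 4.34% an E2F motif. Motif content is a description of these windows, and lists of such genes were built with the motifs' factors in mind. The promoters of CCN2 (chr6:131951373-131951622, minus strand) and KLK5 (chr19:50953039-50953288, minus strand) are shown because they held the most TEAD matches among the largest falls, with matches in capitals. Those in CCN2 start 169, 104 and 95 bases before the gene start and those in KLK5 148 and 57 bases before it, the first of KLK5 on the opposite strand. MCM3 (chr6:52284743-52284992, minus strand) and E2F1 (chr20:33686386-33686635, minus strand), picked after their values were seen, each held 1 E2F match, in capitals, 174 and 20 bases before the start.
CCN2: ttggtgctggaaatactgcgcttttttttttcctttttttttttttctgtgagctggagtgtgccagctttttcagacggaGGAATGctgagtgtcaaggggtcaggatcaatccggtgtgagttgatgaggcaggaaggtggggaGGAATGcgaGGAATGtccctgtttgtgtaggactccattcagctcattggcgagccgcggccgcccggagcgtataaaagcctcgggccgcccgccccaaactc
KLK5: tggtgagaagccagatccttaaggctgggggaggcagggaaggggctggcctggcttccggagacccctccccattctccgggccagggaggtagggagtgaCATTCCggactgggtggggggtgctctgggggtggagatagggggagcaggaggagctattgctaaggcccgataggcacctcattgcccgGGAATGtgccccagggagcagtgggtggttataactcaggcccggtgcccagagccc
MCM3: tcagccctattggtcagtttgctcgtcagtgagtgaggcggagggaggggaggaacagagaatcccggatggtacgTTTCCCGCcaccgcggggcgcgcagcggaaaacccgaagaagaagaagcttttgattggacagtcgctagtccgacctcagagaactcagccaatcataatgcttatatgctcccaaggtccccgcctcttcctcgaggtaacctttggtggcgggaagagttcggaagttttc
E2F1: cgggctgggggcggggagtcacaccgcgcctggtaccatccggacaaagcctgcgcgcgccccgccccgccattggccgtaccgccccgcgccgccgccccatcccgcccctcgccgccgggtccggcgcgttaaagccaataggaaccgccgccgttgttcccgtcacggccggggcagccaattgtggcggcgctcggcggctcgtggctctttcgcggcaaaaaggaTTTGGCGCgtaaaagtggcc

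The core of the consensus estrogen response element, GGTCA and TGACC with any 3 bases between them, was found in 12 of the 27305 promoter windows (0.0439%), in 0 of 1569 promoters of genes that rose and in 0 of 1221 promoters of genes that fell. These windows hold none of the distant enhancers at which estrogen receptors mostly bind, and draw no limit on binding elsewhere.

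Classical estrogen receptor targets rose more often than they fell: 11 of 23 were higher and 2 lower, with a median of 0.19. GREB1, an estrogen-induced cofactor, held 4.35, 4.34 and 3.12 CPM in knockout and 13.8, 14.9 and 10.3 CPM in add-back libraries (log2 1.74 ± 0.15; adjusted p = 1.10e-07). TFF1, the estrogen-induced trefoil factor, went from 0.285, 0.0761 and 0.429 to 2.1999, 2.04 and 2.68 CPM, which is a low level (log2 3.03 ± 0.34; adjusted p = 3.13e-06). IGFBP4, an IGF-binding protein, went from 9.90, 11.7 and 10.5 to 19.8, 22.8 and 18.9 CPM, 1.92-fold. All add-back libraries lay above the knockout libraries in these 3 genes. STC2, stanniocalcin 2, rose 1.21-fold, and FHL2, a LIM-domain coregulator, fell 1.41-fold. With LY500307 against vehicle, a comparison of other libraries, 13 of the 23 members were higher and 0 lower. That count takes all members, whatever their call in add-back cells. Over all genes 4.77% were higher and 2.35% lower with LY500307.

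Of 29 other nuclear receptors and coregulators 8 rose and 3 fell, with a median of 0.07. Over protein-coding genes averaging at least 3 in log2 CPM 16.4% rose and 10.5% fell, so the falls were near that share. NR3C1, the glucocorticoid receptor, rose 1.32-fold from 73.0, 68.9 and 68.8 to 90.3, 92.7 and 95.5 CPM. THRB, a thyroid hormone receptor, rose 1.43-fold, NR2F2 (COUP-TFII) 1.38-fold and the corepressor NCOR1 1.21-fold. Glucocorticoid receptor targets rose in 9 of 20 members and fell in 2, with a median of 0.32, in medium that contained hydrocortisone. MAOA and NR3C1 are members of that list, as are SCNN1A, a subunit of the epithelial sodium channel that rose 1.42-fold from 160, 164 and 167 to 231, 236 and 229 CPM, and BCL6, a repressor that rose 1.22-fold. The groups did not overlap for NR3C1 or SCNN1A. On the opposite strand SCNN1A shares bases with LTBR, which had a mean of 129 CPM, so its value is uncertain.

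Developmental transcription factors moved mostly upward. Of 37 SOX, FOX, homeobox and related factors 17 rose and 1 fell, with a median of 0.24 and rises from 0.17 to 2.09. This list, like the others, was drawn up with earlier results of these data known, so its share of rises is a description only. Besides SOX2 and FOXC1, HOXB2 went from 35.2, 37.1 and 36.7 to 53.5, 54.4 and 51.3 CPM, and MEIS2, a HOX cofactor, from 9.12, 5.94 and 7.59 to 15.8, 14.6 and 14.6 CPM. FOXA1, the pioneer factor that opens chromatin for estrogen receptors, rose 1.30-fold from 203, 219 and 216 to 272, 284 and 271 CPM (adjusted p = 4.98e-06). Every add-back library lay above the knockout libraries for these 3 genes.

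Most called genes of the luminal and junctional epithelium were higher. Of 24 luminal markers 10 rose and 3 fell, and with upper-quartile factors 6 rose. KRT18, the partner of KRT8, went from 845, 786 and 851 to 1027, 1072 and 1102 CPM and AGR2, a disulfide isomerase of secretory cells, rose 1.25-fold, while TFAP2C, an AP-2 factor, fell 1.31-fold. The other falls were at low levels: KIT, the receptor of stem cell factor, went from 2.52 to 0.438 CPM on average (log2 -2.48; adjusted p = 5.17e-05) and PROM1, a membrane glycoprotein, from 5.37 to 2.83 CPM (log2 -0.91). KRT8 and KRT18 overlap on opposite strands. Of 31 junction genes 13 rose and 2 fell: DSP, desmoplakin, rose from 261, 258 and 264 to 337, 338 and 333 CPM and DSG2, a desmosomal cadherin, 1.28-fold, whereas CLDN1, a tight junction protein, fell 1.44-fold. Basal markers, with 3 of 16 higher and 2 lower, did not move one way.

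Attachment genes rose in 12 of 22 members and fell in 2, with a median of 0.21. LAMA3 and LAMC1, laminin chains of the basement membrane, rose from 76.6, 79.5 and 77.2 to 104, 112 and 114 CPM and from 160, 157 and 157 to 202, 216 and 218 CPM. ITGAV, an integrin α subunit, rose 1.30-fold, and ITGB8, a β subunit that pairs with it to activate TGFβ, fell 1.69-fold. The direction differed for the matrix itself, with 2 of 17 mesenchymal matrix genes higher and 6 lower. FN1, fibronectin, fell from 262, 243 and 243 to 119, 117 and 113 CPM (log2 -1.10 ± 0.04; adjusted p = 6.18e-13), and TNC, tenascin C, from 3.78, 3.12 and 2.88 to 0.259, 0.166 and 0.192 CPM. The knockout and add-back libraries of both genes lay far apart. Neural adhesion and guidance genes split, 7 of 30 rising and 12 falling. NCAM1, an adhesion protein that carries polysialic acid, fell 5.25-fold from 3.98 CPM and NRP1, a semaphorin and VEGF coreceptor, 1.56-fold, while ALCAM rose 1.58-fold from 385, 374 and 365 to 576, 620 and 581 CPM.

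Inflammatory and immune genes were lower more often than higher. Of 21 NF-kB targets, cytokines and chemokines 10 fell and 3 rose, with a median of -0.29. LCN2, the iron-binding lipocalin of inflamed epithelia, held 170, 160 and 172 CPM in knockout and 96.5, 97.8 and 93.0 CPM in add-back libraries (log2 -0.81 ± 0.05; adjusted p = 4.09e-10). CSF1, a macrophage growth factor, went from 34.3, 33.9 and 34.1 to 23.8, 24.8 and 23.3 CPM, and IL1R1, the interleukin 1 receptor, fell 1.29-fold. PTGS2, cyclooxygenase 2, went the other way, from 6.48, 7.15 and 7.23 to 16.2, 17.6 and 20.1 CPM. In antigen presentation 8 of 24 fell and 2 rose: TAP1, the peptide transporter, fell 1.49-fold and CIITA, the class II transactivator, 1.56-fold. CIITA overlaps DEXI on the opposite strand, which had a mean of 18.2 CPM, so its value is uncertain. Of 33 interferon-stimulated genes 7 fell and 2 rose, among them IRF1, which fell 1.48-fold, and GBP1, which fell 2.62-fold.

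Few genes downstream of receptor kinases were called, and most of those were lower. Over all genes 10.4% rose and 9.19% fell. Of 18 ERK feedback genes 5 fell, 0 rose and 13 were not called (5 fell and 2 rose with RLE factors). DUSP4, an ERK phosphatase, went from 189, 206 and 204 to 143, 146 and 129 CPM, EPHA4 fell 2.01-fold, and ETV5, an ERK-responsive ETS factor, 1.25-fold. Of 21 AP-1 and immediate-early genes 4 fell, 0 rose and 17 were not called, with a median of -0.04. With RLE factors 3 fell and 2 rose, and with no filter on low counts 5 fell and 2 rose. The direction of both lists rests on few calls. JUN was at 22.7, 27.5 and 30.4 CPM in knockout and 18.2, 17.9 and 14.8 CPM in add-back libraries, and ATF3 was 1.64-fold lower. Among 15 ERBB receptors and ligands 4 rose and 3 fell. EGFR fell 1.33-fold from 78.4, 72.7 and 72.5 to 53.9, 56.3 and 57.4 CPM, EGF fell 1.29-fold, TGFA rose 1.27-fold, and NRG1 rose as given above. JUN and EGFR did not overlap between the groups.

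Most metabolic and stress genes that were called changed by little in fold. Unfolded protein response genes rose in 10 of 25 members and fell in 2. PDIA4, a disulfide isomerase of the endoplasmic reticulum, went from 168, 165 and 166 to 249, 248 and 243 CPM (log2 0.57 ± 0.03; adjusted p = 1.63e-10). Of 32 ATF4 and amino acid genes 13 rose and 4 fell, with ASNS, asparagine synthetase, 1.45-fold higher. Among 33 aldehyde, aldo-keto and xenobiotic enzymes 9 rose and 7 fell (8 and 10 with upper-quartile factors), and a pair of retinaldehyde dehydrogenases moved apart: ALDH1A1 rose as above, and ALDH1A3 fell from 18.95, 19.9 and 20.3 to 6.66, 5.75 and 7.22 CPM (log2 -1.60 ± 0.09; adjusted p = 2.30e-10). Of 37 nuclear oxidative phosphorylation genes 8 rose, by 0.12 to 0.26 on the log2 scale, and 0 fell (6 and 1 with upper-quartile factors). The share that rose was not far from the 16.4% over protein-coding genes averaging at least 3 in log2 CPM. In fatty acid metabolism 6 of 26 rose and 6 fell, with FABP5 2.28-fold higher and CD36, the fatty acid translocase, 2.77-fold lower. TGFβ and BMP genes were mixed, 10 of 29 higher and 6 lower (7 and 7 with upper-quartile factors): TGFBR2, the type II TGFβ receptor, rose from 43.1, 47.0 and 44.7 to 78.1, 78.7 and 77.1 CPM, and the ligands TGFB2 and BMP7 fell 1.64-fold and 1.70-fold. In the Wnt pathway 4 of 24 rose and 4 fell. LEF1, a Wnt effector, rose 2.39-fold and ROR1, a WNT5A receptor, fell 2.72-fold. The plot of gene lists shows the counts of each list reported.

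**Figure D3:**
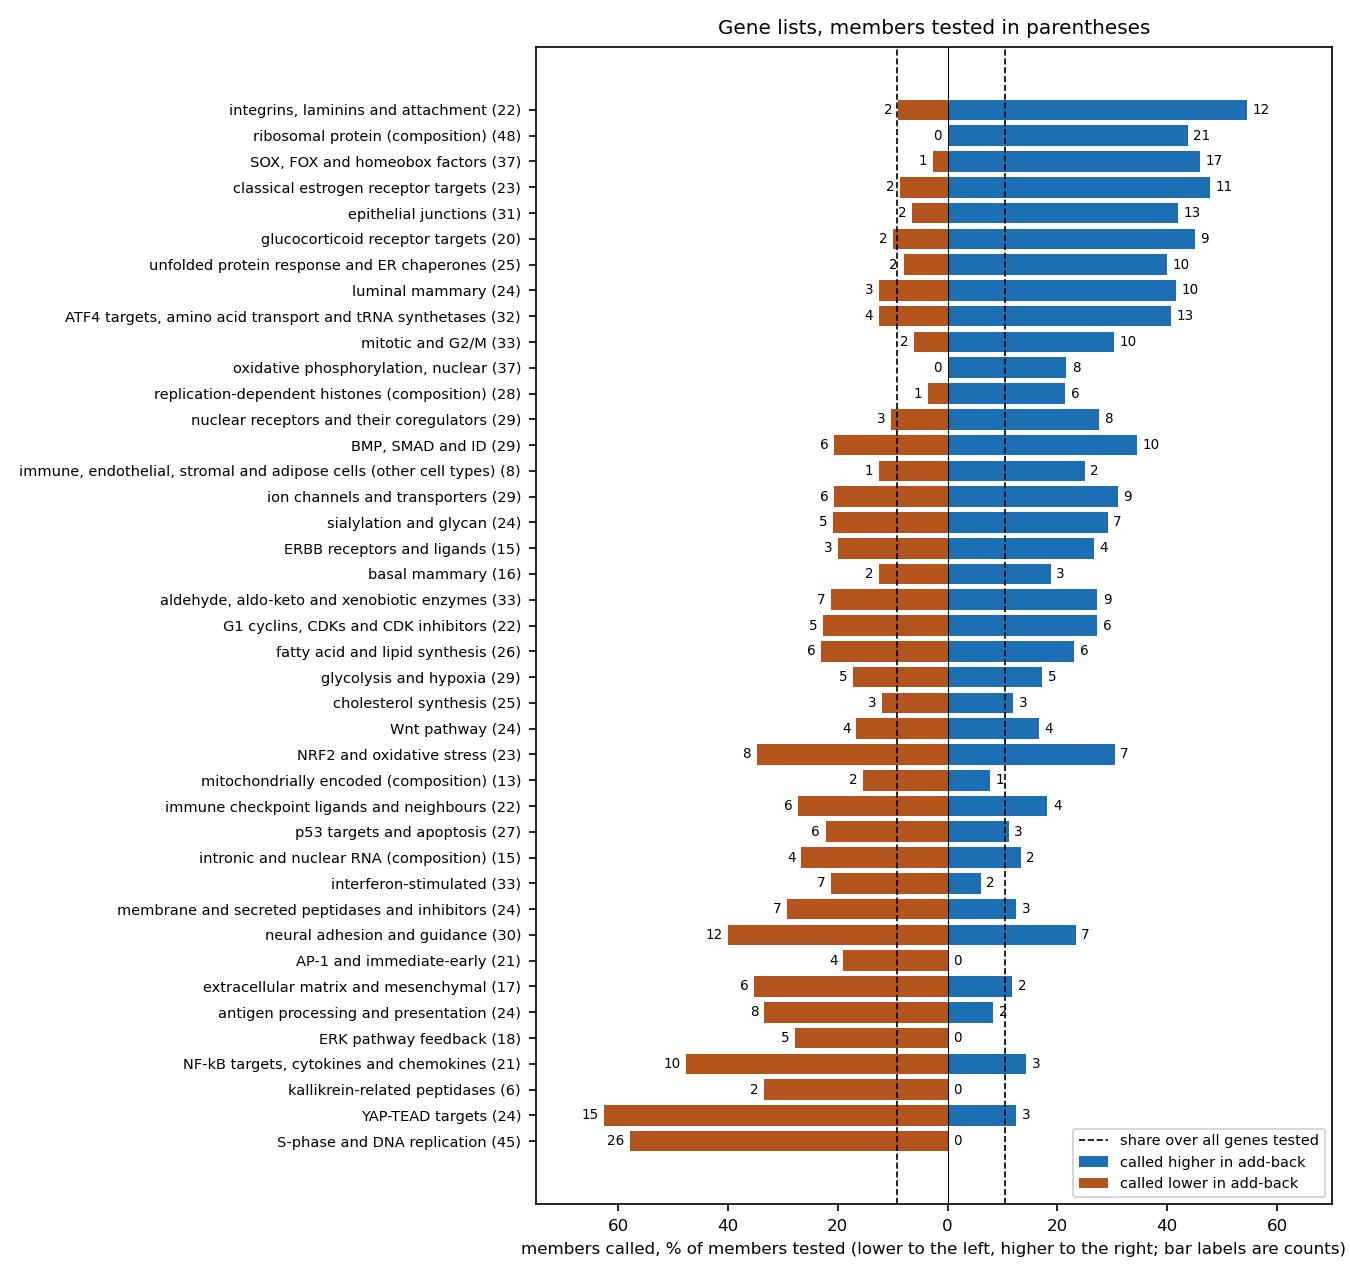
Share of the tested members of each gene list reported that was called higher (blue, right) or lower (orange, left) in add-back cells, in percent, with the counts at the bar ends, the number tested in parentheses and dashed lines at the shares over all genes tested (10.4% and 9.19%). Over protein-coding genes alone the shares were 13.5% and 10.4%, and over those averaging at least 3 in log2 CPM 16.4% and 10.5%. S-phase and YAP-TEAD lists extend farthest to the left, and the attachment, ribosomal protein and SOX, FOX and homeobox lists far to the right with few members to the left.

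Some gene classes that reflect library composition moved with the groups. Ribosomal protein genes rose in 21 of 48 members and fell in 0, and their summed level was 18793 to 19309 CPM in knockout and 20352 to 21014 CPM in add-back libraries. Of 3076 long noncoding RNA genes 78 rose (2.54%) and 198 fell (6.44%), with a median of -0.09. Of 14012 protein-coding genes 1893 rose (13.5%) and 1457 fell (10.4%), with a median of 0.01. Noncoding genes were thus called less often in both directions than all genes (10.4% and 9.19%), with falls the majority of their calls. Falls were also the majority among pseudogenes (23 of 1530 higher, 81 lower, median -0.17) and genes without a type (5 of 410 higher, 33 lower, median -0.21). With upper-quartile factors 69 noncoding genes rose and 228 fell, against 1510 and 1862 protein-coding genes, so falls stayed the majority among noncoding calls and the majority among protein-coding calls changed sides. Nuclear RNAs overlapped in summed level, 8120 to 8556 CPM in knockout and 7153 to 8178 CPM in add-back libraries, and NEAT1, the scaffold of paraspeckles, fell from 367, 333 and 334 to 255, 207 and 186 CPM. The part of these differences in the other results was not tested. Markers of immune, endothelial, stromal and adipose cells were few: 8 of 26 passed the filter, 2 (CD3D and PDGFRA) were at 0 in all 6 libraries, and the 8 summed to 18.6 to 21.1 CPM in knockout and 26.5 to 26.8 CPM in add-back libraries. Most of that difference was KDR, a VEGF receptor, at 7.12, 7.00 and 6.92 CPM in knockout and 13.6, 13.04 and 15.5 CPM in add-back cells.

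Among long noncoding RNAs the largest fall was LINC00632, the host locus of the circular RNA CDR1as, from 83.2, 70.3 and 81.3 to 21.2, 19.1 and 22.0 CPM (log2 -1.92 ± 0.08; adjusted p = 2.63e-12). Circular and linear products of that locus were not separated. PCBP3-AS1 fell 2.53-fold and overlaps PCBP3 on the opposite strand. The largest rise was an unnamed gene on chromosome 8, ENSG00000253154, from 3.06, 3.20 and 2.63 to 12.7, 10.3 and 10.4 CPM, followed by AL121790.1, 2.65-fold, and CALML3-AS1, 2.30-fold. The libraries did not overlap in LINC00632 or ENSG00000253154.

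Levels in the other groups show where the add-back level lay. Control cells were compared in the same medium, and the contrasts share libraries, so values are given side by side only. SOX2, FOXC1, GPC6 and SAGE1 were not called for add-back against control, a contrast that called 45.8% of genes. SOX2 averaged 6.42 CPM in control, 1.45 CPM in knockout and, with ERβ added, 6.18 CPM (adjusted p = 0.759 against control). FOXC1 averaged 4.55 CPM in control and 4.79 CPM in add-back cells. A missing call does not show that such levels are equal. MME, at 12.8 CPM in control and 14.03 CPM in add-back cells, and CCN2, at 3.83 and 3.24 CPM, were likewise not called against control. ALDH1A1 and NRG1 returned in part, with 1356 and 28.5 CPM in control against 489 and 5.51 CPM in add-back cells. CRISP3 in add-back cells stayed above its control level of 7.496 CPM. GREB1 and ESR2 passed their control levels of 1.31 and 5.76 CPM, and PTPRR, at 7.22 CPM in control, did so too. FN1 had means of 262 CPM (control) and 249 CPM (knockout), and its fall in add-back cells was away from both.

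Levels in the depleted medium differed from those of untreated add-back cells for many genes, and 48.1% of genes were called for vehicle against untreated add-back cells. Medium and time differ between these groups, and ERβ was present in all of them. SOX2 was at 22.5 CPM with vehicle against 6.18 CPM in untreated add-back cells, and PTPRR at 15.9 CPM against 13.3 CPM. GLYATL3 stood at 18.3 CPM with vehicle, close to its 16.9 CPM in untreated knockout cells and far above the 0.649 CPM of untreated add-back cells, and OPRK1 was at 84.6 CPM with vehicle against 14.9 CPM. VTCN1 and C4orf50, at 15.2 and 18.3 CPM, were also higher with vehicle than in untreated add-back cells. The low level of these 4 genes in untreated add-back cells therefore did not extend to add-back cells in depleted medium. INSYN1 fell further, to 0.414 CPM.

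**Figure D4:**
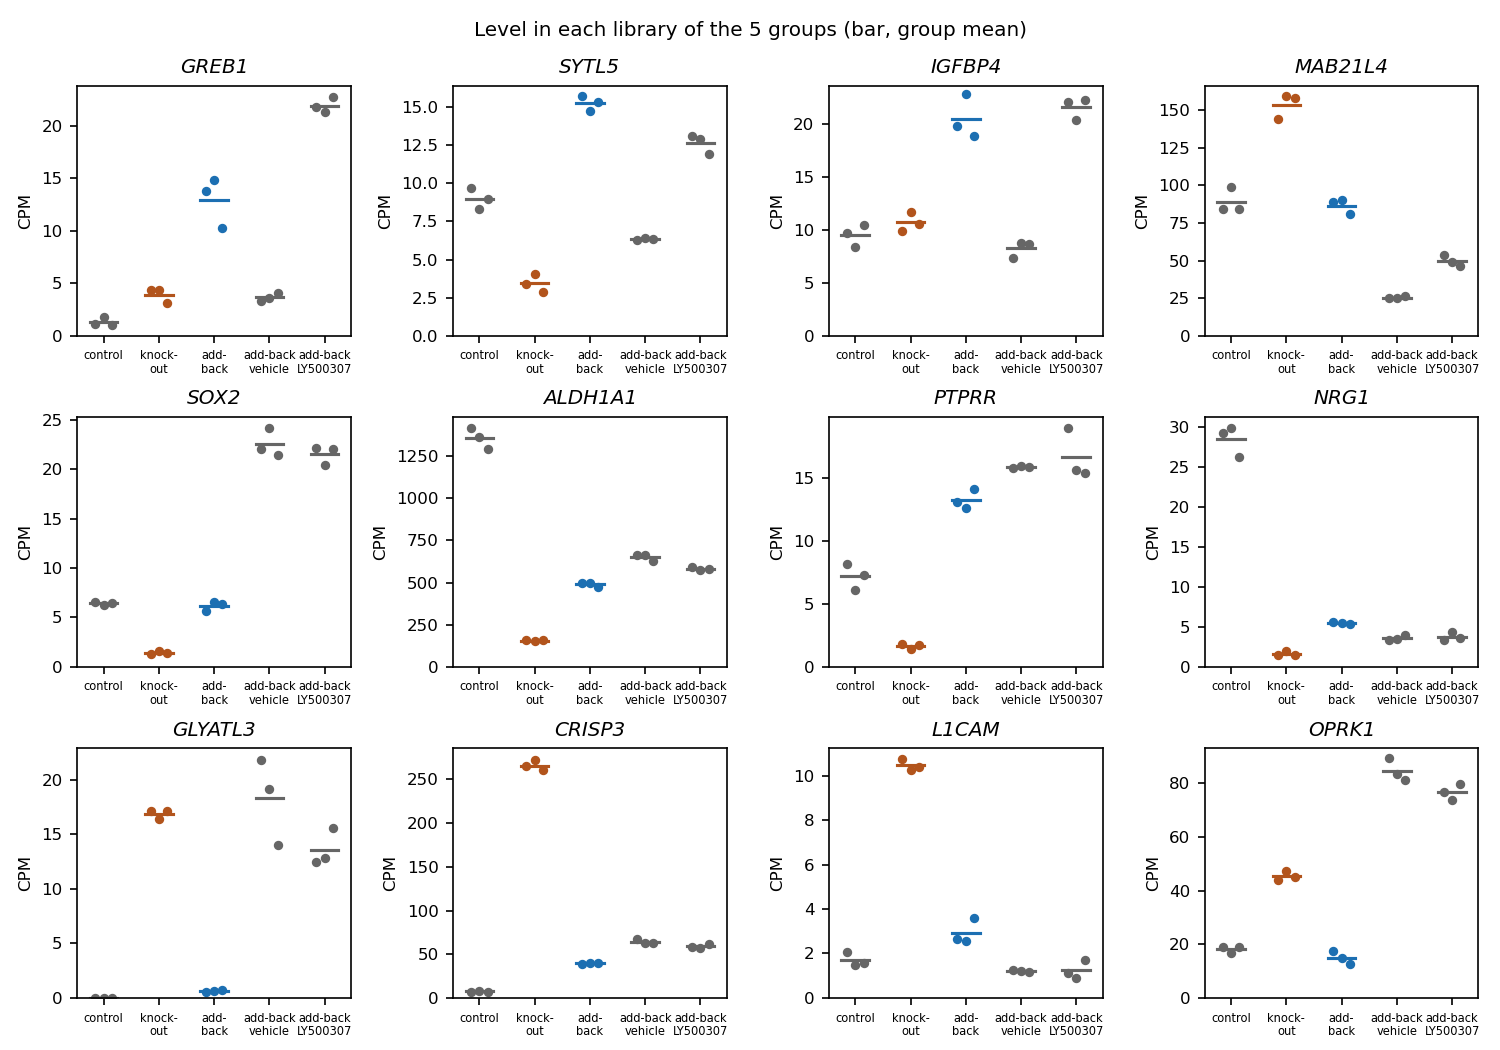
CPM of 12 genes in each of the 3 libraries (points) of control, knockout, add-back, vehicle-treated add-back and LY500307-treated add-back cells, with a bar at each group mean. GREB1, SYTL5 and IGFBP4 are high in add-back and LY500307 libraries and lower in knockout and vehicle libraries; GLYATL3 and OPRK1 are low in add-back but high in vehicle libraries.

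LY500307 against vehicle uses libraries that are not in the comparison of add-back with knockout cells, and called 1389 genes (7.12%), 931 higher (4.77%) and 458 lower (2.35%). Of the 2030 genes that rose in add-back cells, 113 (5.57%, and 12.1% of those higher with LY500307) were higher with LY500307 and 138 (6.80%, and 30.1% of those lower) were lower. Of the 1794 genes that fell, 84 (4.68%) were higher with LY500307 and 65 (3.62%) lower. Against backgrounds of 4.77% raised and 2.35% lowered over all genes, the add-back rises were thus at 5.57% and 6.80% and the add-back falls at 4.68% and 3.62%, and genes moved the same way numbered 178 against 222 the opposite way. These counts rested on single libraries: they were 70 and 60 without vehicle replicate 1, 57 and 51 without vehicle replicate 2, 89 and 92 without LY500307 replicate 1 and 80 and 78 without LY500307 replicate 2. Over all libraries left out in turn they ran from 57 to 262 and from 51 to 279. No preference for either direction can be read from them.

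A few genes moved clearly in both. GREB1 rose from 3.33, 3.63 and 4.09 CPM with vehicle to 21.8, 21.3 and 22.7 CPM with LY500307 (adjusted p = 2.97e-09). SYTL5, at 6.34 CPM with vehicle, rose to 12.6 CPM, IGFBP4 from 8.26 to 21.6 CPM and C1QTNF6, a complement C1q and TNF related protein gene, from 21.2 to 32.9 CPM. All 4 had risen in untreated add-back cells, C1QTNF6 by 1.55-fold. SCNN1A rose in both and SLC40A1, the iron exporter ferroportin, fell in both, 1.51-fold in add-back cells and from 92.6 to 73.1 CPM with LY500307. MAB21L4 and IGFBP5 went opposite ways. MAB21L4, a gene of epidermal differentiation, fell from 144, 159 and 158 to 88.7, 89.9 and 80.9 CPM in add-back cells and rose from 25.5 to 49.6 CPM with LY500307. IGFBP5 fell 1.48-fold in add-back cells and rose from 32.3 to 42.9 CPM with LY500307.

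Neighboring genes changed together in places. The 10071 protein-coding genes averaging at least 3 in log2 CPM, of which 16.4% rose and 10.5% fell, were grouped in windows of 15 megabases, and 192 windows held at least 15 of them. On chromosome 7, 5 adjoining windows (GRCh38 chromosome 7, 90000001 to 158956747) held 246 genes, of which 156 (63.4%) rose and 5 fell, with a median log2 fold change of 0.24 against 0.02 over the 10071 genes. The stretch was picked because of these values, so no test is given. Relative to the knockout mean, the median of the stretch was 0.22, 0.23 and 0.25 in the add-back libraries, 0.00 to 0.01 in the knockout libraries, -0.08 to -0.02 in the control libraries and 0.29 to 0.32 in the vehicle and LY500307 libraries. It lay higher in all 9 libraries of cells with added ERβ than in the 6 others.

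Smaller stretches were chosen the same way. On chromosome 2 (15000001 to 44361862) 65 of 110 genes rose and 3 fell, with a median of 0.17, and on chromosome 13 (45000001 to 60163987) 18 of 27 rose and 0 fell, with a median of 0.29. The chromosome 13 windows from 60000001 and 75000001 had medians of 0.31 and 0.23 but held only 6 and 13 genes, too few for the rule. Those from 90000001 and 105000001 had medians of 0.09 and 0.12. A window on chromosome 2 (195000001 to 210000000) just missed the rule, with 26 of 55 genes higher, 5 lower and a median of 0.149. Its median for knockout against control cells was -0.64. DACH1 and GPC6, among the largest rises, lie on chromosome 13 beyond the stretch given. On chromosome 14 (90000001 to 105010482) 36 of 74 fell and 1 rose, with a median of -0.15. For knockout against control cells the medians of the stretches on chromosomes 13 and 14 were -0.79 and 0.34, and those on chromosomes 2 and 7 were -0.09 and 0.06. With offsets for GC content and transcript length the chromosome 7 stretch had 156 genes higher, 6 lower and a median of 0.21. Some members of the lists above lie in that stretch: PDIA4, ASNS, CYP51A1, LAMB1, CLDN12 and PDK4 rose, while CDK6 and INSIG1 fell. Whether copy number differed between the lines was not tested.

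**Figure D5:**
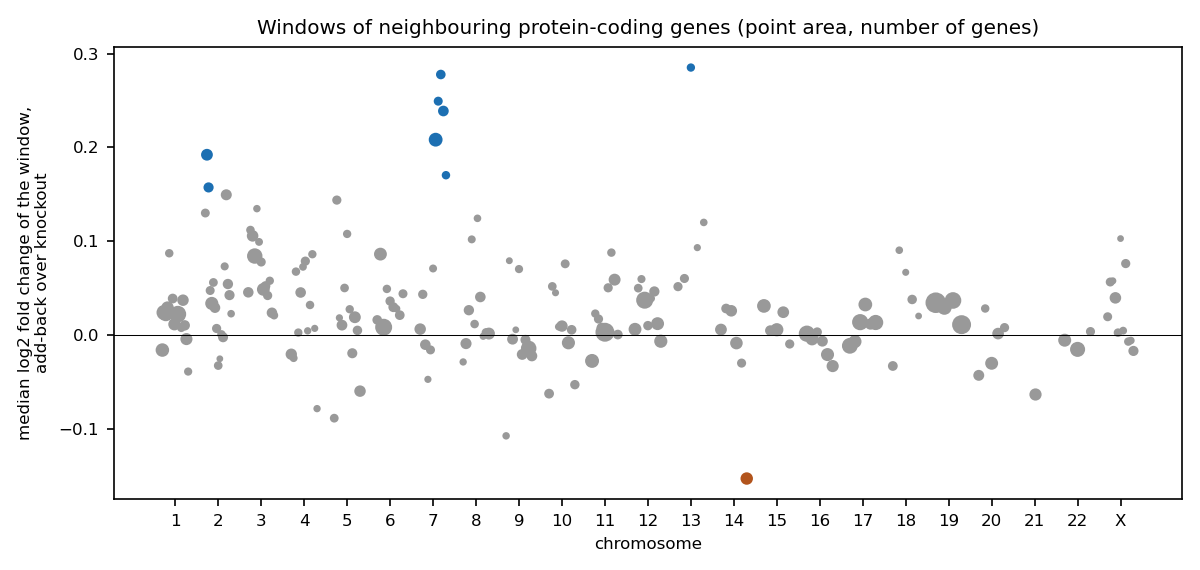
Median log2 fold change of add-back over knockout cells (y) for each of 192 windows of 15 megabases with at least 15 protein-coding genes, by chromosome (x), with point area by number of genes; blue marks medians of at least 0.15 and orange medians of at most -0.15. The 5 windows above 0.15 on chromosome 7 stand out from the other windows of that chromosome.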

How the data were processed

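RNA was measured in 15 libraries of KPL4 cells in 5 groups of 3. The submitters' processing notes name FastQC and Trim Galore for the reads, GSNAP and RSEM as aligner and counter, and GRCh38 as the build. The authors deposited expected counts from RSEM for genes and for transcripts, without normalization. Versions, annotation and the use of strand are not given in the sources used here. Expected counts were rounded to whole numbers. Genes were filtered with filterByExpr by group, scaled by TMM and tested with edgeR 4.0.16 in R 4.3.3, in 1 group-means model of all 15 libraries, so that all groups share the estimate of the spread. The quasi-likelihood F tests were two-sided, with Benjamini-Hochberg adjustment over 19516 genes. The biological coefficient of variation was 4.99%. SEs of log2 fold changes follow from the F statistic. Counts of replicates differed 2.11 to 5.16 times more than counting error (chi-square per degree of freedom), so no libraries were merged. The script was tested on simulated data, where it recovered 26% of 1.2-fold, 36% of 1.5-fold, 66% of 2-fold and 90% of 4-fold changes. It made 6 false calls among 19316 unchanged genes. A gene that was not called may thus still have changed. Positions and gene types came from GENCODE 29, promoters from RefSeq.

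The comparison, the 42 gene lists and all members were chosen with earlier results of these data known, and 1 of the lists is not reported here. Named genes were ESR2, then by fold the first 16 rises and first 16 falls of called protein-coding genes whose mean log2 CPM reached 1 and whose libraries did not overlap. The same conditions gave the 6 largest CPM differences each way, the 5 largest changes each way of long noncoding RNAs and 8 genes called with LY500307 too. Each list gave its 4 called members with the smallest p and its most abundant member. A few others are named as examples. Alternatives were RLE and upper-quartile factors, DESeq2 1.42.0, limma-voom, no filter, a filter at 1 CPM in 3 libraries, a fit of the 6 libraries alone, a replicate block, GC content and length offsets, and leaving out each library. Leaving out vehicle and LY500307 libraries, or the genes of the chromosome 7 stretch, was chosen after seeing the data.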

Additional observations from a re-analysis of the deposited data

How the results depend on the processing

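Under every alternative run for the counts of calls, genes called in all ranged from 3004 to 4211, and from 2918 to 3596 when each of the 6 libraries was left out in turn. With DESeq2 1078 genes were called lower. With upper-quartile factors 6 luminal markers were called higher. Genes called the same way in add-back cells and with LY500307 numbered 352 with no filter on low counts and 86 with the GC content and length offsets, and those called opposite ways 92 with the offsets. When each library was left out in turn the same-way count ran from 57 to 262 and the opposite-way count from 51 to 279. With the replicate block 1897 genes were called higher and 1664 lower. Same-numbered knockout and add-back libraries did not deviate together (r across genes -0.04 to 0.01, 3 pairs), so the numbers were not taken to pair the libraries. S-phase members called lower numbered 22 to 31 and YAP-TEAD members called lower 12 to 16 over the alternatives other than left-out libraries. Without the genes of the chromosome 7 stretch 1858 genes were called higher and 1782 lower, and the S-phase and YAP-TEAD counts of 26 and 15 were as before. ESR1, not called under any of these settings, had a log2 fold change of 0.0062 with no filter on low counts and ranged from -0.11 to 0.045 as libraries were left out. The cause of these shifts was not tested. Depth limits what can be seen at low levels.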

Other observations

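The called kallikreins were lower, and membrane and secreted peptidases and their inhibitors were mixed, with 3 of 24 higher and 7 lower. Besides KLK5, KLK6, a secreted protease, fell from 259, 246 and 254 to 217, 215 and 219 CPM, and of 6 kallikreins tested 2 fell and 0 rose. TMPRSS2, a transmembrane serine protease, went from 95.8, 97.1 and 100 to 56.0, 59.2 and 55.9 CPM, and TIMP3, an inhibitor of metalloproteases, from 163, 163 and 164 to 109, 105 and 114 CPM. The groups did not overlap in these genes. The members that rose were TMPRSS4, a transmembrane serine protease, from 2.79 to 4.59 CPM on average, and the membrane metalloproteases ADAM9, from 419 to 468 CPM, and ADAM17, from 135 to 146 CPM. The edgeR call of ADAM17 was lost with upper-quartile factors, the replicate block and the 6 libraries alone (adjusted p = 0.100, 0.0588 and 0.0525), and without knockout replicate 1, knockout replicate 3 or add-back replicate 3 (adjusted p = 0.0633, 0.0565 and 0.111).

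Glycosylation and drug transport genes changed in both directions. GCNT1, which starts branches on O-glycans, rose 1.60-fold and GALNT3, which starts O-glycans, 1.40-fold, whereas ST6GAL1, an α2,6-sialyltransferase, fell from 70.8, 71.1 and 66.8 to 45.2, 49.5 and 47.3 CPM. ABCG2, a drug efflux pump, rose from 70.6, 68.0 and 68.2 to 98.0, 105 and 107 CPM and ABCC5 1.29-fold. EGLN3, an oxygen sensor, fell 1.42-fold and NDRG1, a hypoxia-induced gene, rose 1.61-fold. Of 27 p53 target and apoptosis genes 3 rose and 6 fell, FAS, a death receptor, by 1.49-fold and TNFRSF10B, a TRAIL receptor, by 1.18-fold.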
